A study of Arabidopsis thaliana with 5 samples.

Results

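The genes described here are ORA47, STZ (also called ZAT10), OPCL1 and AT3G02840, which are known for responses to wounding, jasmonate or elicitors. They were found as the Affymetrix ATH1 probe sets that name one of these genes alone in the platform annotation, which gave 1 probe set for each, 4 genes of 13286 that a probe set names alone and that matched the gene table. The genes were chosen by their measured signals in the 2 groups of samples (some with a large difference between them), so that difference is described without a test. The samples were 3 of protoplasted and sorted cells from whole roots and 2 of intact whole roots of Arabidopsis thaliana, ecotype Columbia. In both groups seedlings grew for 5 days at pH 5.7 and spent 24 h at pH 4.6. About 50000 cells gave the RNA of each sorted sample and 1 µg of total RNA that of each whole-root sample. The labels name no reporter line, gate or protoplasting time, and no sample kept at pH 5.7 was analysed here. Protoplasting, sorting, RNA input and labelling all went with the group and cannot be told apart.

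Wounded plant tissue makes jasmonate from chloroplast fatty acids, and the last steps of its synthesis run in the peroxisome. Jasmonate releases transcription factors such as MYC2 from JAZ repressors, and these factors raise both defence genes and the genes of jasmonate synthesis. ORA47 is an AP2/ERF transcription factor of the DREB group that binds promoters of jasmonate synthesis genes, and STZ is a C2H2 zinc finger repressor that responds to salt, cold, wounding and jasmonate. OPCL1 is a peroxisomal CoA ligase that activates a jasmonate precursor for beta-oxidation. AT3G02840 encodes an ARM repeat protein whose transcript is known to respond early to elicitors.

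All 4 genes had a higher signal in sorted protoplasts than in whole roots, and the groups did not overlap for any of them. The difference was 53.3-fold for AT3G02840, 9.94-fold for ORA47, 3.29-fold for STZ and 2.21-fold for OPCL1, as ratios of geometric means of the deposited signal. All sorted samples lay above all whole-root samples at 42.7% of the 13647 tested probe sets, and since the genes were chosen with this contrast known, nothing is read from their count. A fall or rise of a transcript in such bulk samples can reflect the share of cells that hold it or its level per cell, which cannot be told apart.

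ORA47, the activator of jasmonate synthesis genes, had signals of 329.2, 428.5 and 403.0 in sorted protoplasts, against 39.35 and 38.02 in whole roots. The sorted values lay within 1.30-fold of each other and the whole-root values within 1.03-fold, while the lowest sorted value was 8.37-fold the highest whole-root value. Its log2 difference was 3.31 with a pooled replicate SD of 0.164. The mean of the sorted samples was 386.9 ± 51.6 (SD, n = 3) and that of the whole roots 38.7 ± 0.942 (SD, n = 2). Both whole-root values lay under 43.3, the signal below which the dimmest 40% of probe sets by mean log2 signal were left out of the tests. That bound is a filter and not a detection limit. No detection calls were used here, so whether ORA47 was detected in whole roots is not known. Set against the bound itself, the sorted mean was 8.93-fold higher.

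STZ, the zinc finger repressor, had signals of 1376, 1047 and 1011 in sorted protoplasts, against 429.0 and 276.9 in whole roots. Sorted replicate 1 was the highest of the sorted samples, and the whole-root samples differed from each other by 1.55-fold, the widest spread between whole roots among the 4 genes. The means were 1145 ± 201.3 (SD, n = 3) in the sorted samples and 353.0 ± 107.5 (SD, n = 2) in the intact roots, a log2 difference of 1.72 with a pooled replicate SD of 0.326. Over all 6 sorted to whole-root sample ratios, the value ran from 2.36 to 4.97. All 5 values lay above the filter bound of 43.3, explained above for ORA47.

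OPCL1, the enzyme of the set, had signals of 679.7, 563.9 and 501.8 in sorted protoplasts, against 232.3 and 293.6 in whole roots. Sorted replicate 1 was again the highest, while here whole-root replicate 2 was the higher of the whole roots, unlike for STZ. The means were 581.8 ± 90.3 (SD, n = 3) in the sorted samples and 262.9 ± 43.4 (SD, n = 2) in the intact roots. The log2 difference was 1.14 with a pooled replicate SD of 0.227, the smallest difference of the 4 genes. Its lowest sorted value was 1.71-fold the highest whole-root value.

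AT3G02840, the ARM repeat gene, had signals of 606.2, 750.2 and 643.8 in sorted protoplasts, against 12.43 and 12.49 in whole roots. Both whole-root signals were brighter than only 20.9% and 20.4% of probe sets on their arrays, whereas the sorted signals were brighter than between 86.5% and 89.0% on theirs (a rank that depends also on how well a probe set binds). The means were 666.7 ± 74.7 (SD, n = 3) in the sorted samples and 12.46 ± 0.0450 (SD, n = 2) in the intact roots, a log2 difference of 5.74 with a pooled replicate SD of 0.129. Because the whole-root values lay below the filter bound, the fold is imprecise, and against that bound it was 15.4-fold. Sorted replicate 2 was the highest and sorted replicate 1 the lowest, an order that ORA47 shared, while STZ and OPCL1 were highest in sorted replicate 1.

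**Figure D1:**
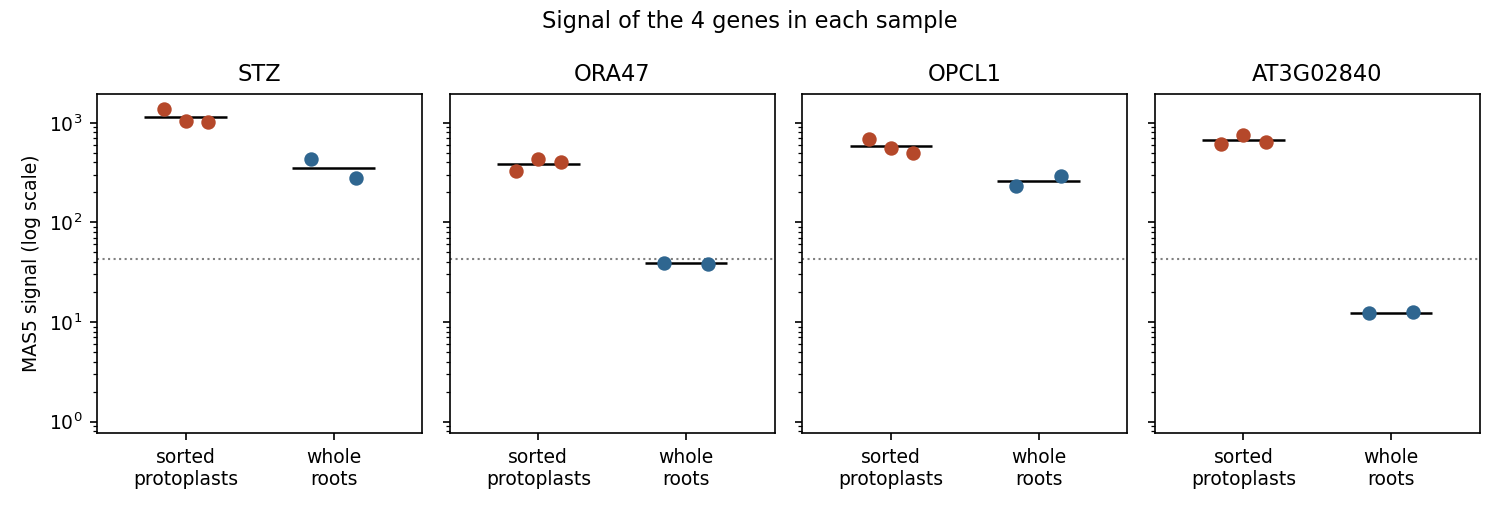
MAS5 signal (log scale) of STZ, ORA47, OPCL1 and AT3G02840 in the 3 sorted protoplast samples (left in each panel) and the 2 whole-root samples (right), with bars at the mean and a dotted line at the filter bound of 43.3. ORA47 and AT3G02840 lie below the line in whole roots, and STZ and OPCL1 lie above it in all 5 samples.

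Among all tested probe sets the 4 genes took different places. The log2 difference of OPCL1 stood above 85.9% of those tested and that of STZ above 95.2%. ORA47 and AT3G02840 stood in the upper tail, at a place that is imprecise because their whole-root values lay under the filter bound. The median log2 difference was 2.52 over the 4 genes and 0.15 over all tested probe sets, and all 4 passed the filter on low signals, ORA47 and AT3G02840 through their sorted samples. As the genes were chosen on this contrast, these places and medians restate the choice and nothing is read from them. Their replicate spread was ordinary, with a median pooled log2 SD of 0.196 against 0.212 over tested probe sets.

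**Figure D2:**
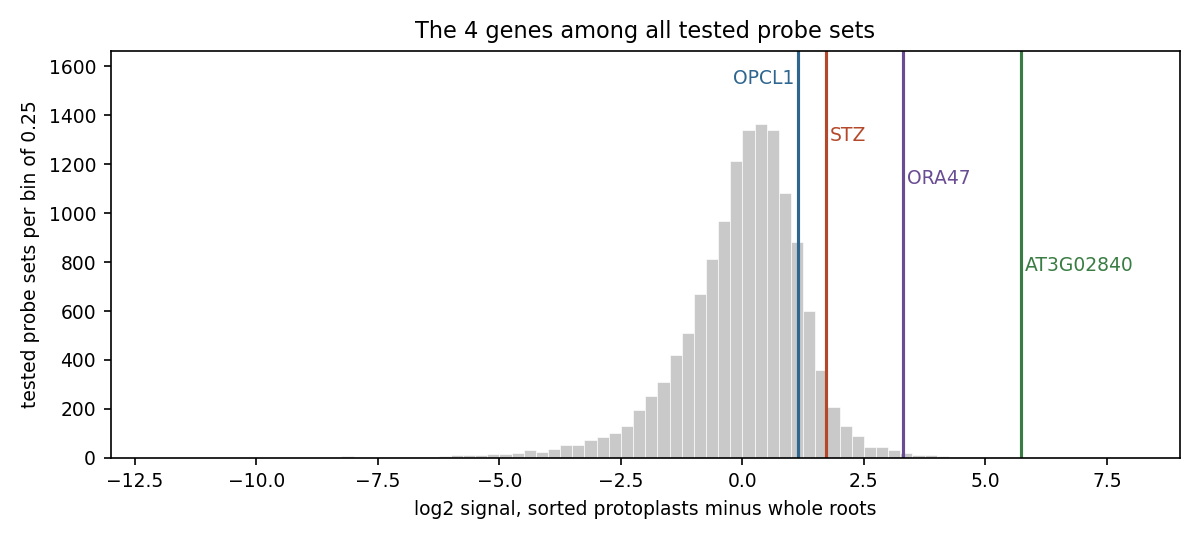
Number of tested probe sets by log2 difference, sorted protoplasts minus whole roots (bins of 0.25), with lines at the 4 genes. OPCL1 (1.14) and STZ (1.72) stand on the upper shoulder of the distribution, and ORA47 (3.31) and AT3G02840 (5.74) in its upper tail.

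Array quality measures moved with the group as well. The signal ratio of the 3′ to the 5′ probe set was 19.8 to 29.3 in sorted protoplasts and 3.08 to 3.29 in whole roots for actin, 1.33 to 1.51 and 1.05 to 1.15 for GAPDH, and 2.57 to 2.90 and 1.10 to 1.52 for ubiquitin. A second set of control probe sets on the same arrays also gave higher ratios in sorted protoplasts. For GAPDH they were 5.22 to 9.18 in sorted protoplasts and 0.788 to 0.969 in whole roots. For actin they were 107.0 to 168.6 and 24.5 to 30.8, and for ubiquitin 4.89 to 5.996 and 2.25 to 2.30. Across 7334 tested probe sets the log2 difference rose with gene length (Spearman's rho 0.32, a description, since all points share the same arrays). STZ, ORA47 and AT3G02840 are short genes of 1303, 1208 and 1289 bp including introns, and OPCL1 has 2760 bp. With the length trend removed the log2 differences were 2.51 for STZ, 4.21 for ORA47, 6.54 for AT3G02840 and 1.03 for OPCL1. On the log2 scale the arrays correlated at r of 0.944 to 0.956 among sorted samples, 0.938 between whole roots and 0.846 to 0.853 between the groups. Without sorted replicate 1 the differences were 1.58 for STZ, 3.43 for ORA47, 1.03 for OPCL1 and 5.80 for AT3G02840.

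Markers of green tissue, known mainly from shoots, moved with the group, and RCA (log2 difference -3.32) and LHCB4.1 passed as lower in sorted protoplasts by limma. Their summed signal over the 3 named genes of 14 listed (RCA, LHCB4.1 and PORB) was 106.6 to 128.3 in sorted protoplasts and 901.5 to 1069 in whole roots, and none was at 0. Over 5 named root markers of 22 the sum was 7337 to 7610 in sorted protoplasts and 8378 to 11790 in whole roots, most of it PYK10, the root beta-glucosidase, which was bright in all 5 samples. Of these 5 root genes 2 passed as higher, as did 34.1% of all tested probe sets, and nothing is read from that count. CR4, a receptor kinase, had a log2 difference of 2.13, and 1.15 with a pseudocount of 32. Its whole-root values of 15.8 and 20.8 lay under the filter bound. CR4 thus passed the filter through its sorted samples, where it is high, and its fold is imprecise. The other was LHW, a vascular regulator (1.34). PYK10 passed as lower (-0.57, limma adjusted p = 0.0209), a call lost with median centring (0.164), with no filter (0.0591), and without sorted replicate 3 (0.0543) or whole-root replicate 2 (0.133). The root hair expansins EXPA7 (-0.79) and EXPA18 (-0.71) did not pass. The part of these markers in the differences of the 4 genes was not tested. Of the 3 named reference genes AT4G34270 (-0.22) and AT2G28390 (-0.01) did not pass the test, and PEX4 passed as lower (-2.75).

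To find genes with like profiles, the 5 log2 values of each tested single-gene probe set were set, after subtraction of their own mean, against those of each of the 4 genes. The 3 nearest to STZ were AT1G17360 (root mean square difference 0.045 on the log2 scale), IAA33 of the Aux/IAA family (0.101) and the mitochondrial cytochrome oxidase gene cox1 (0.11). AT1G17360 had signals of 519.1, 360.7 and 359.8 in sorted protoplasts, against 154.3 and 96.6 in whole roots, and so shared with STZ both the high sorted replicate 1 and the lower whole-root replicate 2. The nearest to ORA47 were AT3G55840 (0.088), AT5G12940 (0.118) and AT5G60520 (0.121). AT3G55840 had signals of 268.4, 302.1 and 304.7 in sorted protoplasts, against 32.8 and 30.7 in whole roots.

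The nearest to OPCL1 were AT3G13000 (0.053), AT5G50420 and AT3G07010 (0.077 each). For AT3G02840 the nearest genes were less alike, AT5G19110 at 0.330, AT5G58784 at 0.478 and AT4G23590 at 0.489. AT5G19110 had signals of 1031, 1399 and 1061 in sorted protoplasts, against 12.2 and 17.1 in whole roots. With 5 samples in 2 groups, likeness mostly reflects the size of the group difference, and it says nothing of shared control.

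**Figure D3:**
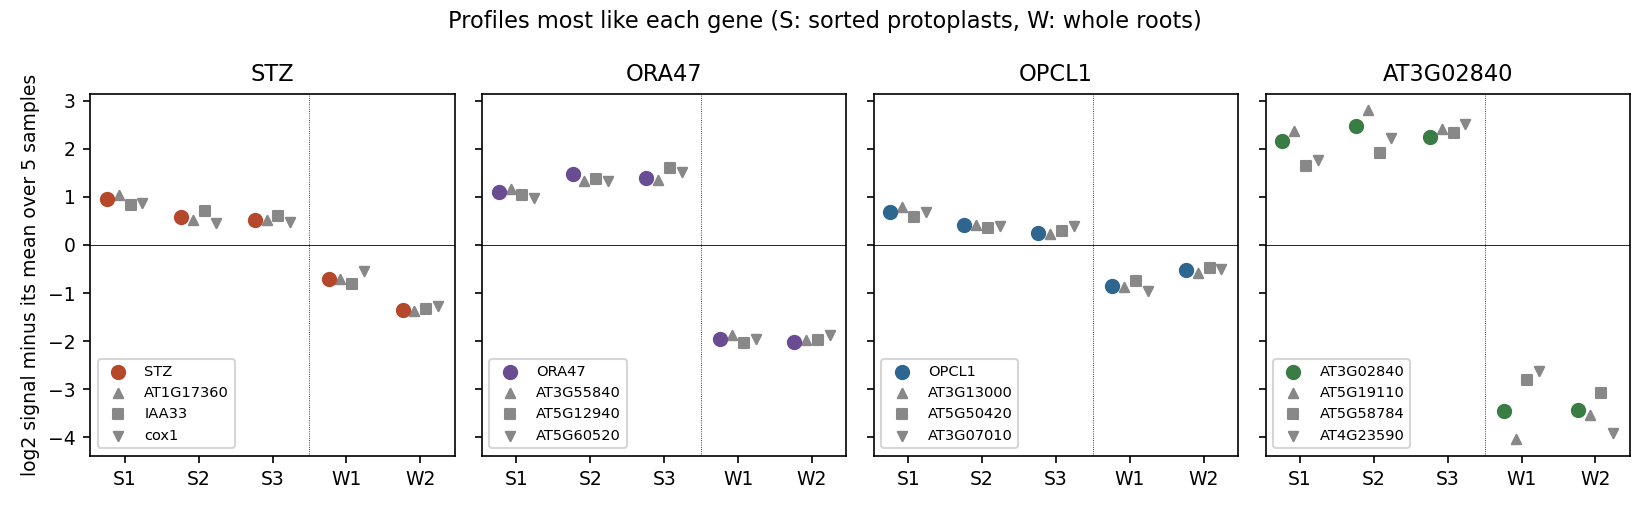
Log2 signal minus its own mean over the 5 samples for each of the 4 genes (coloured circles) and the 3 tested genes with the nearest profiles (grey), in sorted protoplasts (S1 to S3) and whole roots (W1 and W2). The grey points lie close to STZ, ORA47 and OPCL1 and further from AT3G02840, whose nearest gene differed by 0.330.

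The other genes of these pathways and families were taken from 8 lists, 177 genes in all. A probe set named 39 of them alone, and 21 of those were bright enough to be tested. Some of the dimmer 18 are described below by their signals, and listed genes without a probe set of their own are not analysed here. Of the 21, 11 were higher in sorted protoplasts and 4 lower, which is 52.4% and 19.0%, against 34.1% and 26.5% of all tested probe sets (limma, Benjamini-Hochberg adjusted p under 0.05). After median centring 12 list genes were higher and 2 lower, against 43.4% and 21.1% of all tested probe sets. Without whole-root replicate 1 or 2 the list counts were 9 higher and 1 lower, and 9 higher and 2 lower. Calls over all tested probe sets were then fewer too, 3409 higher and 2660 lower without the one, and 3344 and 2675 without the other, against 4649 and 3623 with all samples. The lists were written with earlier results of these data known, which had named some of these genes. Some of the higher genes, named below, also passed the filter only through their sorted samples. Nothing is therefore read from these shares.

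Among early wound and elicitor genes, 4 of 7 tested (of 54 listed) were higher and 1 lower, with a median log2 difference of 0.53. CML38, a calmodulin-like calcium sensor, had signals of 316.6, 316.6 and 308.3 in sorted protoplasts, against 27.8 and 23.6 in whole roots (log2 difference 3.61, SE 0.188, limma adjusted p = 1.01e-05). WRKY53, a transcription factor of senescence and defence, had 337.5, 220.6 and 266.3 in sorted protoplasts, against 37.0 and 33.3 in whole roots (2.95, SE 0.230, limma adjusted p = 4.41e-05). Both were below the filter bound in both whole-root samples, as ORA47 and AT3G02840 were, so their folds are imprecise too. They passed the filter through the sorted samples, where they are high. The same holds below for AT2G38240 and AT1G19210. AT2G28710 was below the bound in sorted protoplasts and passed the filter through its whole-root samples, so its fold is also imprecise.

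WRKY22, which acts in immune signalling downstream of MAP kinases, was higher by a log2 difference of 1.29 (SE 0.248, limma adjusted p = 0.00277). BIK1, a receptor-associated kinase of elicitor signalling, was lower at -0.55 (SE 0.152, limma adjusted p = 0.0148). That call was lost after median centring (limma adjusted p = 0.115) and in other alternatives. Of the glutamate receptor-like channels that carry wound signals, GLR3.3, named after its values were seen, was higher at 0.53 (SE 0.177, limma adjusted p = 0.031), a call lost without sorted replicate 2 (0.0773) or 3 (0.0948), whole-root replicate 1 (0.158) or 2 (0.0599), and with the replicate block (0.128). GLR3.6 did not pass (-0.50, limma adjusted p = 0.1). WRKY6 did not pass either (0.22, limma adjusted p = 0.422). CML37, a close relative of CML38, was too dim to be tested, with 38.9, 99.5 and 101.2 in sorted protoplasts, against 21.7 and 0.526 in whole roots.

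The jasmonate pathway around OPCL1 and ORA47 was thinly covered. Of 32 synthesis genes 1 was tested, AIM1 of peroxisomal beta-oxidation, which follows the step of OPCL1. It had 983.1, 1105 and 1106 in sorted protoplasts, against 1126 and 1369 in whole roots, and did not pass (log2 difference -0.22, SE 0.148, limma adjusted p = 0.224). The OPCL1 signals of all sorted samples lay above those of both whole roots. Those of AIM1 lay below, but barely (1106 against 1126), and its log2 difference was 0.02 with median centring. Groups without overlap, in either direction, were found at 10347 of the 13647 tested probe sets. The difference between these 2 genes was not tested, and AIM1 also serves the breakdown of other fatty acids. DGL, a lipase, and JMT, a methyltransferase that acts on jasmonate, were too dim to be tested, at most 15.7 and 4.29 in any sample.

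Among turnover genes, which oxidise or conjugate jasmonate, 1 of 2 tested was higher. AT2G38240, a jasmonate oxidase gene, had 712.9, 430.1 and 313.6 in sorted protoplasts, against 22.8 and 11.3 in whole roots (log2 difference 4.84, SE 0.404, limma adjusted p = 5.74e-05). Its relative AT5G05600 did not pass (0.14, limma adjusted p = 0.475), with overlapping signals of 350.7 to 426.5 in sorted protoplasts and 324.5 to 362.4 in whole roots. Another relative, JRG21, lay under the filter but had 110.0, 131.1 and 135.7 in sorted protoplasts, against 12.4 and 0.931 in whole roots. AT3G11180 of the same list, also under the filter, had 1.42, 4.30 and 0.804 in sorted protoplasts, against 8.90 and 0.494 in whole roots. JRG21, CML37 and AT1G22810 (below) were named after their values were seen, and so was AT3G11180, whose groups overlapped. The same holds for the dim genes AT2G45120 and 4CL8, described with their families, which differed in the other direction.

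Of the signalling genes only MYC3 and MYC4, related activators of the jasmonate response, had a probe set of their own, and they went opposite ways. MYC4 had 213.2, 218.7 and 222.5 in sorted protoplasts, against 113.8 and 114.3 in whole roots (log2 difference 0.94, SE 0.164, limma adjusted p = 0.00173). MYC3 had 188.5, 97.4 and 143.1 in sorted protoplasts, against 283.1 and 283.3 in whole roots (-1.04, SE 0.273, limma adjusted p = 0.0119), a call lost without either whole-root sample (0.072 and 0.0729). The response genes PDF1.2, PDF1.2b and THI2.1, which encode defence peptides, were below the filter. PDF1.2 had 25.6, 51.5 and 34.4 in sorted protoplasts, against 5.72 and 14.6 in whole roots. PDF1.2b and THI2.1 had overlapping groups, with signals between 3.34 and 24.05 across the 5 samples.

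In the DREB group of ORA47, both tested relatives of 15 listed were higher. AT1G19210 had 138.0, 169.6 and 189.3 in sorted protoplasts, against 3.88 and 26.0 in whole roots (log2 difference 4.03, SE 0.683, limma adjusted p = 0.00149). The difference depended on the whole-root sample, and was 2.66 and 5.40 with one or the other left out. AT1G77640 had 99.1, 119.9 and 117.0 in sorted protoplasts, against 56.0 and 43.6 in whole roots (1.18, SE 0.228, limma adjusted p = 0.00286). AT1G22810 was below the filter, with 68.8, 83.3 and 59.8 in sorted protoplasts, against 13.4 and 0.736 in whole roots. The other named relatives, AT1G44830, AT4G31060 and AT1G33760, had overlapping groups and signals of at most 61.3.

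The C2H2 zinc finger relatives of STZ were mixed, with 1 of 3 tested (of 17 listed) higher, 1 lower and 1 that did not pass. AT5G03510 had 306.5, 147.1 and 148.2 in sorted protoplasts, against 93.4 and 78.7 in whole roots (log2 difference 1.14, SE 0.334, limma adjusted p = 0.0192). Its sorted replicate 1 was the highest, as for STZ, and the call was lost without either whole-root sample (limma adjusted p = 0.0695 and 0.122). AT2G28710 was lower, with 29.7, 33.0 and 27.7 in sorted protoplasts, against 240.3 and 326.3 in whole roots (-3.22, SE 0.238, limma adjusted p = 3.47e-05). AT2G28200 did not pass (0.49, limma adjusted p = 0.289), and its groups overlapped. AT2G45120, below the filter, had 10.7, 4.51 and 4.56 in sorted protoplasts, against 24.2 and 19.6 in whole roots.

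OPCL1 belongs to the family of enzymes like 4-coumarate CoA ligase, of which 7 of 13 listed relatives had a probe set of their own and 4 were tested. AT1G20490, which lies near OPCL1 in a run of related genes, had 203.6, 181.0 and 211.4 in sorted protoplasts, against 49.2 and 44.6 in whole roots (log2 difference 2.08, SE 0.192, limma adjusted p = 8.77e-05). AT5G63380 had 335.4, 324.0 and 370.1 in sorted protoplasts, against 178.3 and 184.0 in whole roots (0.92, SE 0.156, limma adjusted p = 0.00152). AT4G05160 was lower, with 831.4, 791.2 and 827.9 in sorted protoplasts, against 1267 and 1116 in whole roots (-0.54, SE 0.135, limma adjusted p = 0.00941), a call lost after median centring (0.089). AT4G19010 did not pass (0.53, limma adjusted p = 0.121). The other neighbours in that run, AT1G20480 and AT1G20500, had at most 42.0 in any sample and were not tested. 4CL8, also below the filter, had 5.98, 16.6 and 14.8 in sorted protoplasts, against 23.9 and 24.3 in whole roots. Probe sets of such related genes may bind each other's transcripts, which was not tested.

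**Figure D4:**
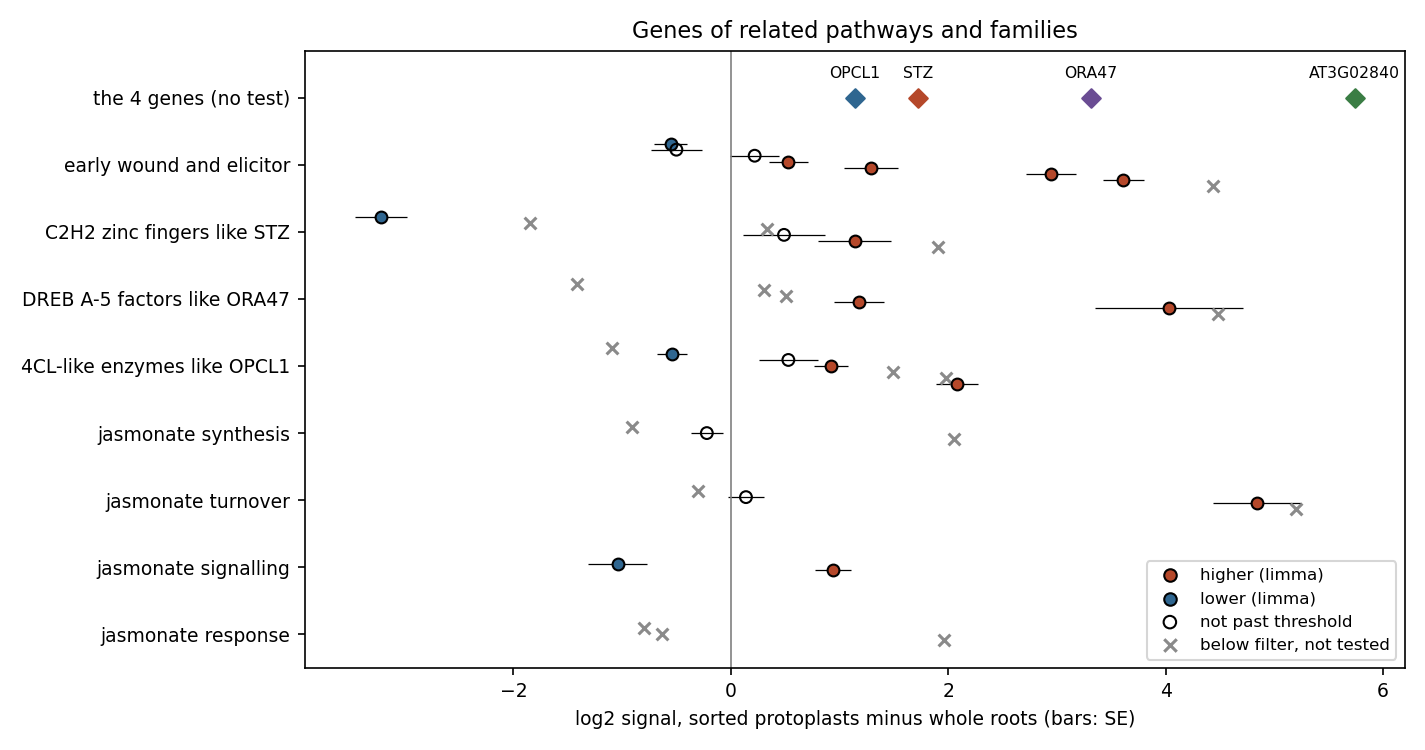
Log2 difference, sorted protoplasts minus whole roots, of each named gene of the 8 lists (circles with SE bars where tested, crosses where below the filter) under the 4 genes (diamonds, no test). Red circles passed as higher and blue as lower by limma. Higher calls stand in 6 lists, but 34.1% of all tested probe sets were called higher and nothing is read from these counts. Of 15 listed DREB relatives of ORA47 2 were tested, at 4.03 and 1.18. The one at 4.03, AT1G19210, passed the filter through its sorted samples.

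The order of the 4 genes by log2 difference, AT3G02840 above ORA47 above STZ above OPCL1, was the same in each of the 10 alternatives. STZ and OPCL1 came closest without whole-root replicate 2, at 1.40 and 1.31. A pseudocount of 32 lowered ORA47 to 2.56 and AT3G02840 to 3.97, the genes dim in whole roots, and left STZ at 1.63 and OPCL1 at 1.05.

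**Figure D5:**
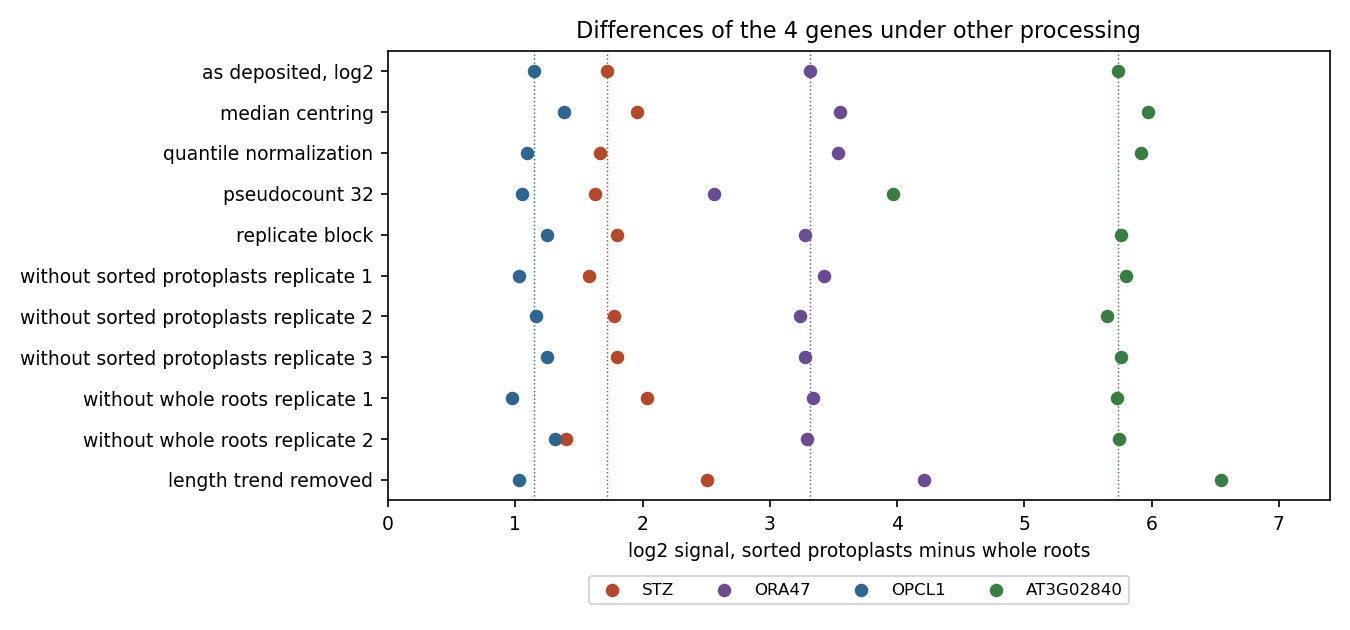
Log2 difference, sorted protoplasts minus whole roots, of the 4 genes as deposited (top row, with dotted lines down) and under each alternative. The values run from 0.98 for OPCL1 to 6.54 for AT3G02840.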

How the data were processed

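Transcripts were measured on ATH1 arrays. The authors deposited a linear intensity (signal) for every probe set, from MAS5 according to the submitters' processing notes. Leaving out the highest and lowest 2% of probe sets, the mean was 250.0 on each array, so all had been scaled to the same target. Software version and detection calls are not given in the sources used here. Arrays hold no counts, so their number (3 and 2) limits the precision, and the spread between replicates may be technical.

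Log2 of these values was used as it stood. After removal of 64 control probe sets and the 40% dimmest probe sets (9099), 13647 were tested with limma 3.58.1 in R 4.3.3 (lmFit, eBayes with trend, group alone, Benjamini-Hochberg adjustment). The code was tried on simulated signals with the same spread for all probe sets and few changed ones. The real data differ in both, so that trial does not check the calls given here. The platform annotation named 1 gene for 13513 probe sets, of which 13436 matched the RefSeq gene table (TAIR10.1). For a list gene with several probe sets, the brightest was taken. The 4 genes and the lists were chosen with earlier results of these data known. Named list genes were the up to 4 called genes with the largest difference per list, or the one with the smallest adjusted p. Other settings tried were another scaling (median centring or quantile normalization), 32 added before log2, the filter removed or raised to 60%, no variance trend, a replicate block, each sample left out, and, for the 4 genes, removal of a loess trend (span 0.5) with gene length.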

Additional observations from a re-analysis of the deposited data

How the results depend on the processing

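All 4 genes stayed higher in sorted protoplasts under the 10 alternatives run for them. As their groups did not overlap, leaving out a sample, adding a pseudocount or the replicate block could not change the direction. The genes were also chosen on this contrast, so nothing is read from the kept direction. With median centring ORA47 had a log2 difference of 3.55, OPCL1 1.38 and AT3G02840 5.97, and with quantile normalization ORA47 had 3.54 and AT3G02840 5.92. A pseudocount of 32 gave 2.56 for ORA47 and 3.97 for AT3G02840. Removal of the length trend gave 2.51 for STZ, 4.21 for ORA47 and 6.54 for AT3G02840. Leaving out single samples gave 1.40 to 2.03 for STZ, 3.24 to 3.43 for ORA47, 0.98 to 1.31 for OPCL1 and 5.65 to 5.80 for AT3G02840.

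Probe sets called lower numbered 2223 with the filter at 60%, which tests fewer, against 3623. With median centring the median of all tested probe sets was 0.389, against 0.15, and 5925 were higher (4649 without it) and 2876 lower. In the jasmonate turnover list 2 genes were higher with a pseudocount of 32 or no filter and 0 with the filter at 60%; in the response list 1 was higher with no filter. At the 60% filter the early wound list had 2 higher, the zinc finger list 0 higher and 0 lower, the DREB list 0 higher and the 4CL-like list 1 higher, since few of their genes were then tested. Lower genes of the early wound list numbered 0 with median centring or the replicate block and 2 with no variance trend, and of the 4CL-like list 0 with median centring. With single samples left out, the lower counts ran from 0 to 1 in the signalling, early wound and 4CL-like lists and the higher count from 0 to 1 in the zinc finger list. Leaving out a whole-root sample leaves 1, assumed to vary as the sorted ones do. AIM1 turned to 0.02 with median centring (limma adjusted p = 0.941). For losses outside the 60% filter the cause was not tested.

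Same-numbered samples did not deviate together (r of 0.00569 for replicate 1 and 0.00134 for replicate 2), so no pairing by number was seen. The deviations of the 2 whole-root samples mirror each other, so these values cannot exclude a pairing. With the replicate block 3801 probe sets were higher and 3136 lower, and the 4 genes had 1.80 (STZ), 3.28 (ORA47), 1.25 (OPCL1) and 5.76 (AT3G02840). Replicate 3 has no whole-root sample, so these differences equal those without sorted replicate 3 and are no separate check. For the 22 named list and marker genes, 231 of 252 alternative values kept the direction and the side of the threshold. These 252 leave out settings in which a gene was not tested, so calls lost in that way are not counted. With the raised filter the genes left out were AT2G38240, CML38, WRKY53, AT2G28710, AT5G03510, AT1G19210, AT1G77640, AT1G20490, RCA, LHCB4.1 and CR4. CR4 was also left out with quantile normalization. Signals near or under the filter bound limit the folds of ORA47 and AT3G02840.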

Other observations

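The 3 protein-coding genes on each side of the 4 genes were looked at after the results above were known, and their values carry no test. Of these 24 flanking genes, 14 had a probe set of their own and 11 of those had a log2 difference above 0, as had 49.4% of all 22746 probe sets other than controls and 55.6% of the tested ones. Next to ORA47, ALDH10A8, an aldehyde dehydrogenase gene, had 2702, 2612 and 2409 in sorted protoplasts, against 1177 and 1261 in whole roots. AT1G74910, one gene further, had 624.7, 704.1 and 788.9 in sorted protoplasts, against 244.8 and 287.1 in whole roots, while AT1G74940 on the other side had overlapping groups. The next gene on that side is TIFY10B, a JAZ repressor gene also called JAZ2, which is not analysed here.

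Near OPCL1, AT1G20540 had 996.9, 796.8 and 802.4 in sorted protoplasts, against 251.2 and 259.1 in whole roots, a log2 difference of 1.75 that is larger than that of OPCL1. Around AT3G02840 the differences were small beside its own 5.74: VTC4, a gene of ascorbate synthesis, had 0.81, AT3G02860 had 0.30 and AT3G02820 had -1.22. Near STZ the only measured flanking gene was AT1G27700, 3 genes away, with a log2 difference of 0.22. TAF4B and RSL4, directly next to STZ, had no probe set of their own.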
